A study of Homo sapiens with 25 samples.

Results

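The same tagged FOXD2 was precipitated from HCT116 cells through either of its tags, and the peak lists of the FLAG and the 6xHis chromatin immunoprecipitations (ChIP) were set against each other. Chosen by library title, 2 FOXD2-FLAG and 2 FOXD2-6xHis libraries make up 4 of the series' 25 libraries. HCT116 is an established human colorectal carcinoma line. All 4 libraries came from cells labelled with pcDNA3.1-FOXD2-3xflag-6xhis, an expression plasmid that carries both tags, so by the labels the groups differ in the antibody only, FLAG M2 for the first group and the 6X His clone HIS.H8 for the second. Per the protocols in the labels, the chromatin was crosslinked with formaldehyde and sonicated. Of the other libraries, 14 had peak lists of H3K4me3, H3K4me1, H3K27ac or MLL4 in cells with an empty pSin vector or a FOXD2-expressing pSin vector, and those lists served here as annotation. The labels do not say that replicates were separate cultures, so their spread may be technical. A tag ChIP from cells without the tagged protein was not analysed here.

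FOXD2 is a forkhead transcription factor, a family whose winged-helix domain binds DNA at sites with the core TGTTTAC or close variants. An epitope tag is a short peptide added to a protein so that a single antibody can be used in place of one raised against the protein. FLAG is an acidic designed peptide, whereas 6xHis is a run of histidines, and runs of histidines also occur in human proteins, among them several transcription factors. H3K4me3 marks gene starts, H3K4me1 marks enhancers and the flanks of starts, H3K27ac marks active forms of both, and MLL4 (KMT2D) is a methyltransferase of H3K4 at enhancers.

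Sites of 3 kinds were compared, all of them regions made by merging the peaks of the 4 lists. Of 91522 regions, 1978 (2.16%) were held by both FLAG lists and neither 6xHis list (FLAG-only), 2569 (2.81%) by both 6xHis lists and neither FLAG list (6xHis-only), and 5399 (5.90%) by all 4. The clearest difference lay at the top of the lists. No FLAG-only site was among the 100 best regions of either FLAG list, whereas the best-ranked 6xHis-only sites were gene starts at the very head of both 6xHis lists, with no FLAG peak on them. An 8-letter word, AAGATGGC, stood in 3.62% of FLAG-only promoters and 32.6% of 6xHis-only promoters, the windows in which it was picked for its excess, so that these shares are a description. FLAG-only sites carried more histone marks, a difference that changed sign without FLAG replicate 2.

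The promoters at the 3 best-ranked sites of each tag that overlap a promoter window are shown, because the FLAG-only ones lack this word and the 6xHis-only ones carry it. Each is the RefSeq sequence from 250 bases before to 50 after an annotated gene start (GRCh38.p14, the assembly of the build hg38), written 5′ to 3′ on the strand of the gene. Capitals mark AAGATGGC or its reverse complement GCCATCTT. The FLAG-only windows hold neither this word nor the forkhead core TGTTTAC on either strand and are in lower case throughout. The PALLD site starts only at 168631572 and the SNX25 site ends at 185209360, so most of both windows lies outside the site. The CCDC59 window and the 6xHis-only windows lie within their sites, except for the first bases of the CXXC1 interval. The FLAG-only windows are PALLD (plus strand, chr4:168631328-168631627), which encodes the actin-associated protein palladin, SNX25 (plus strand, chr4:185209348-185209647), which encodes a sorting nexin, and CCDC59 (minus strand, chr12:82358756-82359055).
PALLD: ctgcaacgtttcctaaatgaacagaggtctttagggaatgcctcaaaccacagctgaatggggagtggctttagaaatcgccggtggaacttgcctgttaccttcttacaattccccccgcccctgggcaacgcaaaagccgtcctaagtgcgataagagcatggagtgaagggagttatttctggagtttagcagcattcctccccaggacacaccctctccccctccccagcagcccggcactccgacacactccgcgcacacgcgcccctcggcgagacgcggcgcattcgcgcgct
SNX25: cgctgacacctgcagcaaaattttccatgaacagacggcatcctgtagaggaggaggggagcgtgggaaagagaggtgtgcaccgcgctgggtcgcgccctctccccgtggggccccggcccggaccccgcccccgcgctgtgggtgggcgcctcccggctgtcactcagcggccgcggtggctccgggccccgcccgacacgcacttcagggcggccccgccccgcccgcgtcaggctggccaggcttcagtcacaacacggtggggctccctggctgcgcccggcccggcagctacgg
CCDC59: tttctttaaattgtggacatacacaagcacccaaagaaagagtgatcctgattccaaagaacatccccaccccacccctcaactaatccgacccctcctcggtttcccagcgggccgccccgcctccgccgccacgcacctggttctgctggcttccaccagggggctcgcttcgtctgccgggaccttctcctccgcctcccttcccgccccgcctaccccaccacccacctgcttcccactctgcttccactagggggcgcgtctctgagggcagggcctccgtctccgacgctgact

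The 6xHis-only windows are CXXC1 (minus strand, chr18:50287643-50287942), PRKCSH (plus strand, chr19:11435385-11435684) and CCDC124 (plus strand, chr19:17932765-17933064). CXXC1 encodes a CpG-binding subunit of the SET1 methyltransferase complexes, and PRKCSH the beta subunit of glucosidase II, which trims glycoproteins in the endoplasmic reticulum. Each holds the word 1 time.
CXXC1: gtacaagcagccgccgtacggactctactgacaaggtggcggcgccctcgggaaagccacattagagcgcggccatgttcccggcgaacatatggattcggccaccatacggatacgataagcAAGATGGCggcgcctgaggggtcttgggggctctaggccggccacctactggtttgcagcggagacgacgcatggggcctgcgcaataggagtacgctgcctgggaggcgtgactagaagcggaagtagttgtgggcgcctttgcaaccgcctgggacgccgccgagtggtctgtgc
PRKCSH: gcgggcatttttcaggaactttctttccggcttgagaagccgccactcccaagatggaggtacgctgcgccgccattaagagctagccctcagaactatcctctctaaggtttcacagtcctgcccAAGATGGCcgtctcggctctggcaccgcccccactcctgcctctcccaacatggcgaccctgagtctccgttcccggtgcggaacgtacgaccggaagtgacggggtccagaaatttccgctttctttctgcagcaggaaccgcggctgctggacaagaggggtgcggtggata
CCDC124: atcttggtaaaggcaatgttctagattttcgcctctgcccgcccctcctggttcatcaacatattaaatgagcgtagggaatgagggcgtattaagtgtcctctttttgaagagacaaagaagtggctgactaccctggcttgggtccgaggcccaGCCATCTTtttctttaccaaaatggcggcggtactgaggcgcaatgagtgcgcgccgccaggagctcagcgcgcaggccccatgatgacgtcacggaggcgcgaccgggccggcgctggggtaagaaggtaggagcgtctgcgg

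The FLAG lists held 38472 and 31424 peaks in replicates 1 and 2, and the 6xHis lists 48194 and 26942. The authors' fold enrichment reached 10.3 and 14.2 in the FLAG lists, against 27.7 and 17.9 in the 6xHis lists. These values are the authors' own per peak and rank peaks within a list only. Median fold enrichment was 3.91 and 4.16 with FLAG and 3.92 and 4.40 with 6xHis, with read depth not given in the sources used here. Regions found in 1 list alone made up 40.2% and 42.9% of the FLAG lists, and 47.2% and 38.5% of the 6xHis lists. FLAG replicate 2 stood apart from the other 3 lists. H3K4me3 lay on 25.1% of its regions, against 10.6% in FLAG replicate 1, 10.5% in 6xHis replicate 1 and 15.4% in 6xHis replicate 2, and the results that rest on it are given with and without it. As a check of the cells behind the histone lists, an H3K4me3 peak lay within 2 kb of the bodies of 6 of 9 colon epithelium marker genes in both lists, among them EPCAM, CDH1 and CDX2. A peak was as near for 2 of 5 blood markers, 4 of 6 fibroblast and endothelial markers, and 2 or 3 of 5 neural markers, so a peak at a marker gene does not separate these cell types.

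Libraries of the same tag did not share more regions than libraries of different tags. The FLAG replicates had 20.3% of the regions held by either of them in common and the 6xHis replicates 19.6%. Across tags the share was 26.7% for FLAG replicate 1 with 6xHis replicate 1, 20.0% for FLAG replicate 1 with 6xHis replicate 2, 20.3% for FLAG replicate 2 with 6xHis replicate 1 and 19.4% for FLAG replicate 2 with 6xHis replicate 2. The closest pair of lists therefore carried different tags. Same-tag pairs averaged 1.64 percentage points less than different-tag pairs (difference -1.64, exact permutation over the 3 ways to pair 4 libraries, two-sided p = 0.667). The smallest p that 4 libraries allow is 0.33, and without 6xHis replicate 1 the difference was 0.507 points.

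The order of the shared sites behaved in the same way. Over the 5399 sites held by all 4 lists, ranked within each list from the highest −log10 q down (rank 1), Spearman's rho was 0.298 between the FLAG replicates and 0.346 between the 6xHis replicates. Across tags it was 0.416 for the first replicates of each tag, 0.297 for the second replicates, 0.330 for FLAG replicate 1 with 6xHis replicate 2 and 0.304 for FLAG replicate 2 with 6xHis replicate 1. These are descriptions across sites, which are not independent replicates, and wider peaks had higher scores in all 4 lists (rho of peak width with −log10 q, 0.180 to 0.375). The same-tag mean minus the different-tag mean was -0.0148 (exact permutation p = 1, two-sided), and without FLAG replicate 1 it was 0.0599. Peak summits of a shared site lay a median of 214 bp apart between the FLAG replicates and 183 bp between the 6xHis replicates, against 168 to 217 bp across tags. Of the 1000 best regions of each list, 206 were common to the FLAG replicates and 230 to the 6xHis replicates, against 197 to 250 across tags.

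Most shared sites had ranks that did not separate the tags. Ranks are given here as percent of the length of their list, with low values at the top. At 3689 of the 5399 sites (68.3%) the FLAG ranks overlapped the 6xHis ranks. Both FLAG ranks were better than both 6xHis ranks at 945 sites (17.5%), and the reverse held at 765 (14.2%). At the CAV1 start, the gene of the membrane protein caveolin, the site ranked at 8.53% and 1.19% in the FLAG lists, against 75.2% and 92.1% in the 6xHis lists. A site in GATAD2B, which encodes a subunit of the NuRD complex, ranked at 17.0% and 5.69% in the FLAG lists, against 94.3% and 93.6% in the 6xHis lists. UBR4, SRSF3 and MYOF had the next largest differences in this direction, and all 5 sites lie within their genes. In the other direction, a site 1.7 kb from EIF2B2, which encodes a subunit of a translation initiation factor, ranked at 80.4% and 99.1% in the FLAG lists, against 9.92% and 5.86% in the 6xHis lists. A site in ARL14, a small GTPase gene, ranked at 91.4% and 96.3% with FLAG and at 21.5% and 1.51% with 6xHis. Sites near H2BC5 and WNT8B and in KDSR had the same direction. These 10 sites were chosen for their differences, so their ranks are descriptions.

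The tags separated at the head of the lists. Of the 100 best regions by −log10 q, the other tag held 99 in FLAG replicate 1 and 100 in FLAG replicate 2, against 67 in 6xHis replicate 1 and 86 in 6xHis replicate 2. The groups do not overlap, and the mean difference of 23 regions per 100 reached the smallest p that 2 against 2 libraries allow (exact permutation p = 0.33, two-sided). This measure was chosen after seeing the data, so its p is a description. Without 6xHis replicate 1 the difference was 2.5. Among the 25 best regions the other tag held 100% in each FLAG list, against 48% in 6xHis replicate 1 and 72% in 6xHis replicate 2. From rank 501 to 1000 the shares were 87.6% and 89.2% in the FLAG lists, against 85.0% and 82.0% in the 6xHis lists. Both FLAG shares exceeded both 6xHis shares in every bin of ranks up to 5000. In the last of these bins they were 77.0% and 77.4% in the FLAG lists, against 71.5% and 66.8% in the 6xHis lists. In the next bin, up to rank 10000, the tags overlapped, with 66.5% and 62.4% for FLAG and 63.4% and 58.3% for 6xHis. Past rank 20000 the shares were 42.0% and 31.5% in the FLAG lists, against 37.5% and 36.7% in the 6xHis lists. The gap was therefore widest at the head of the lists but not confined to it.

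**Figure D1:**
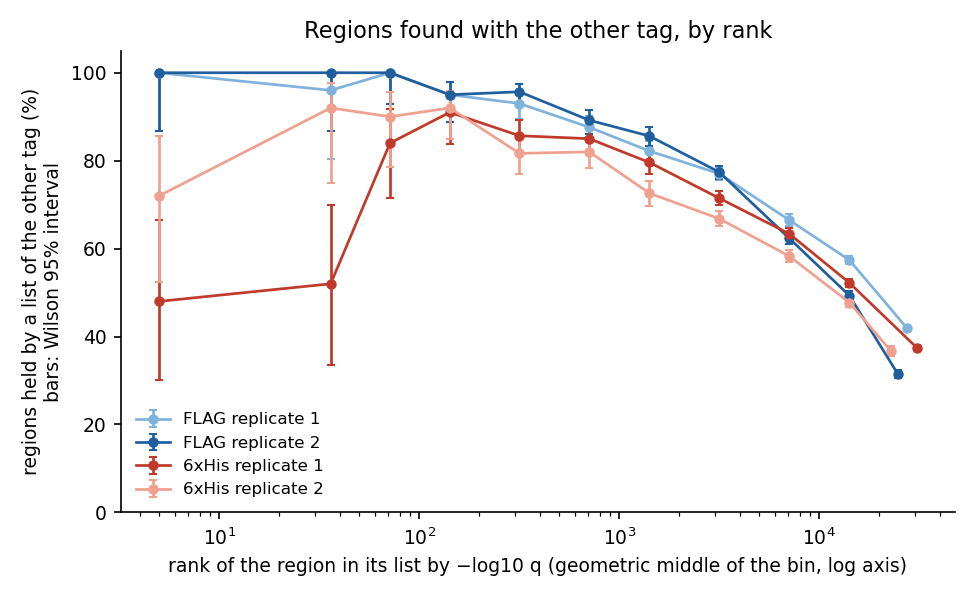
Share of regions held by at least 1 list of the other tag (percent, vertical) against the rank of the region in its own list (log axis), for the 2 FLAG and the 2 6xHis lists; points are bins of ranks and bars are Wilson 95% intervals, which cover counting error only. Both FLAG lists start at 100% and decline, whereas 6xHis replicate 1 starts at 48% and 6xHis replicate 2 at 72% in the best 25 regions.

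Among the 100 best regions, 0 in either FLAG list were FLAG-only sites, while 22 in 6xHis replicate 1 and 11 in 6xHis replicate 2 were 6xHis-only sites. Of the 10 best-ranked FLAG-only sites, 2 lay within 2 kb of a gene start and carried H3K4me3 in both lists. The first (chr17:77851938-77852539), with no protein-coding gene within 100 kb, ranked 1979 in FLAG replicate 1 with 5.70-fold enrichment and 103 in FLAG replicate 2 with 8.66-fold. The second lies in MED13 (chr17:62045269-62045769), a gene of the Mediator kinase module, with ranks of 1690.5 (a tie) and 526. A 6xHis replicate 1 peak lay 268 bp from it. Sites in TTC19, a gene of mitochondrial complex III assembly, and MATR3, which encodes a nuclear matrix protein that binds RNA, and near TRPC4AP held no H3K4me3. The sites at the starts of PALLD and SNX25 (next to CFAP97) had H3K4me3 in both lists, and a 6xHis replicate 2 peak lay 99 bp from the PALLD site. Sites in LOC128092253, IQCJ-SCHIP1 and CRAMP1 make up the rest of the 10.

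The best-ranked regions missing from FLAG were gene starts, and all 10 of the best 6xHis-only sites lay within 2 kb of a start and carried H3K4me3 in both lists. The 6xHis-only site at CXXC1 (chr18:50287645-50288385) ranked 1 in 6xHis replicate 1 with 27.7-fold enrichment and 2 in 6xHis replicate 2 with 15.7-fold, and the nearest FLAG peaks lay 8119 and 8407 bp away. The site at PRKCSH (chr19:11435224-11436004) ranked 2 and 1 in the 6xHis lists, with 23.9-fold and 17.9-fold enrichment and the nearest FLAG peak 25122 bp away. The start of CCDC124 (chr19:17932386-17933077), whose product binds ribosomes, ranked 11 and 6. Both FLAG lists lacked all 3.

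The other 7 sites were gene starts as well. METTL3, the catalytic subunit of the N6-methyladenosine writer of RNA, ranked 4 and 22 in the 6xHis lists, and PTBP1, a repressor of splicing, ranked 9 and 10. PSMC5, an ATPase of the proteasome, ranked 29 and 30, and TPGS1, a subunit of a tubulin polyglutamylase, ranked 13 and 46. CDK5RAP2, a centrosome protein, ranked 25 and 96. The zinc-finger gene ZNF175 and CDC45, which encodes a part of the replicative helicase, completed the 10. The absence of FLAG was not always an absence nearby, since FLAG peaks lay 396 bp from the METTL3 site and 559 bp from the PSMC5 site. Of the 100 best-ranked FLAG-only sites, 26 had a 6xHis peak within 1000 bp, and of the 100 best 6xHis-only sites, 26 likewise had a FLAG peak within that distance.

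**Figure D2:**
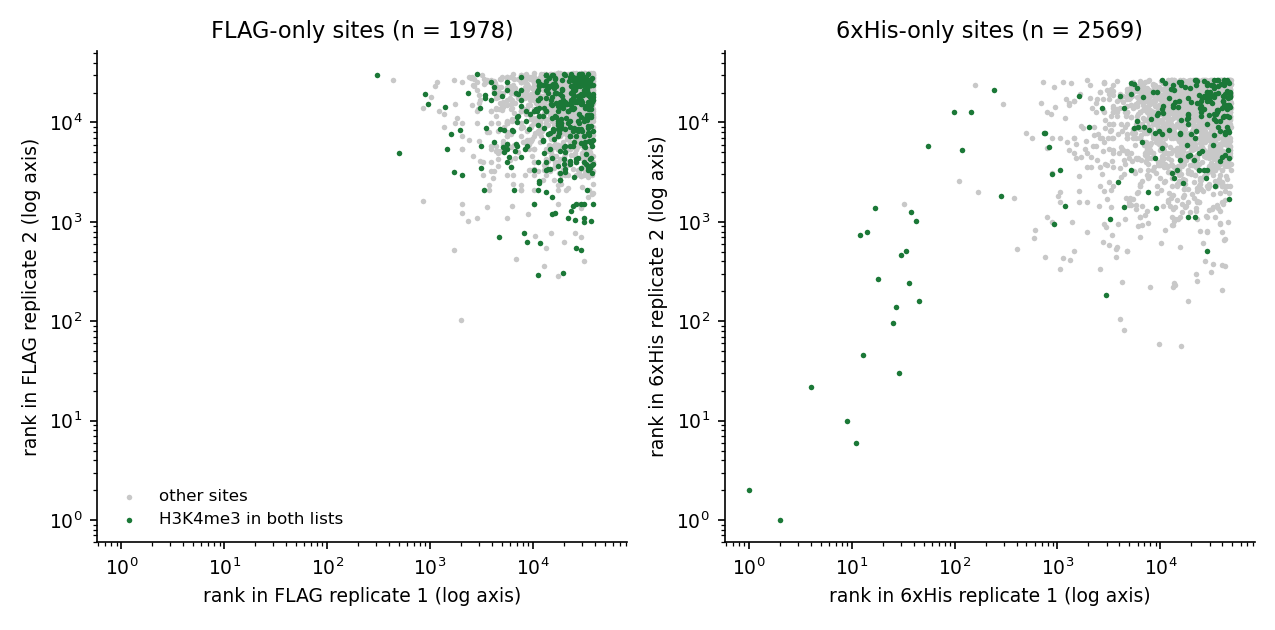
Ranks by −log10 q of the 1978 FLAG-only sites (left) in FLAG replicate 1 (horizontal) and replicate 2 (vertical), and of the 2569 6xHis-only sites (right) in the 6xHis replicates; both axes are log scales, each point is a site, and green marks H3K4me3 in both lists. The best FLAG-only ranks are 307.5 in replicate 1 and 103 in replicate 2, whereas the best 6xHis-only rank is 1 in both replicates, and the 10 best 6xHis-only sites carry H3K4me3.

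The run of H3K4me3 starts at the head of the 6xHis-only sites was short. Among FLAG-only sites, 2 of the best 10, 7 of the best 25, 29 of the best 100 and 220 of the best 1000 carried H3K4me3. Among 6xHis-only sites the counts were 10, 19, 31 and 102. Past the first 100 sites the share was therefore higher among FLAG-only sites.

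Sequence was compared over 22011 promoter windows of 15711 protein-coding genes, and sites outside these windows were not searched. Over 2 kb from both ends of every gene lay 73.4% of FLAG-only and 81.4% of 6xHis-only sites. The table of windows has none on chromosome 8. FLAG-only sites overlapped 138 windows (118 genes), 6xHis-only sites 89 (76 genes) and sites of all 4 lists 892 (734 genes). The word AAGATGGC was found by ranking all 8-letter words, both strands together, by their excess in 6xHis-only windows over all windows, so its share there is a description. It stood in 5 of 138 FLAG-only windows (3.62%, 95% Wilson interval 1.56 to 8.20), against 29 of 89 6xHis-only windows (32.6%, 23.7 to 42.9). All windows held it in 3.54% of cases, windows with H3K4me3 in both lists in 5.21% and windows of sites held by all 4 lists in 7.96%. Of the 10 best 6xHis-only sites, 6 overlapped a window with the word, those of CXXC1, PRKCSH, CCDC124, PSMC5, TPGS1 and CDK5RAP2. Of the 10 best FLAG-only sites 0 did so, although only 2 of these overlapped a window at all.

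Windows of sites held by 1 list alone, which were not the ones ranked to find the word, gave the same order. Among them it stood in 3.12% for FLAG replicate 1 (2 of 64) and 4.31% for FLAG replicate 2 (52 of 1207). It stood in 20.8% for 6xHis replicate 1 (38 of 183, 15.5 to 27.2) and 8.05% for 6xHis replicate 2 (7 of 87, 3.95 to 15.7). The interval of 6xHis replicate 2 includes the share of FLAG replicate 2 and overlaps the intervals of both FLAG lists. The FLAG-only minus 6xHis-only difference was -29.0 points with all lists and -15.7 points without FLAG replicate 2 or without 6xHis replicate 1, where the class of that tag rests on 1 list. Intervals cover counting error only, and windows of 1 gene can overlap. Median GC content of the windows was 62.8% for FLAG-only and 58.3% for 6xHis-only sites.

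**Figure D3:**
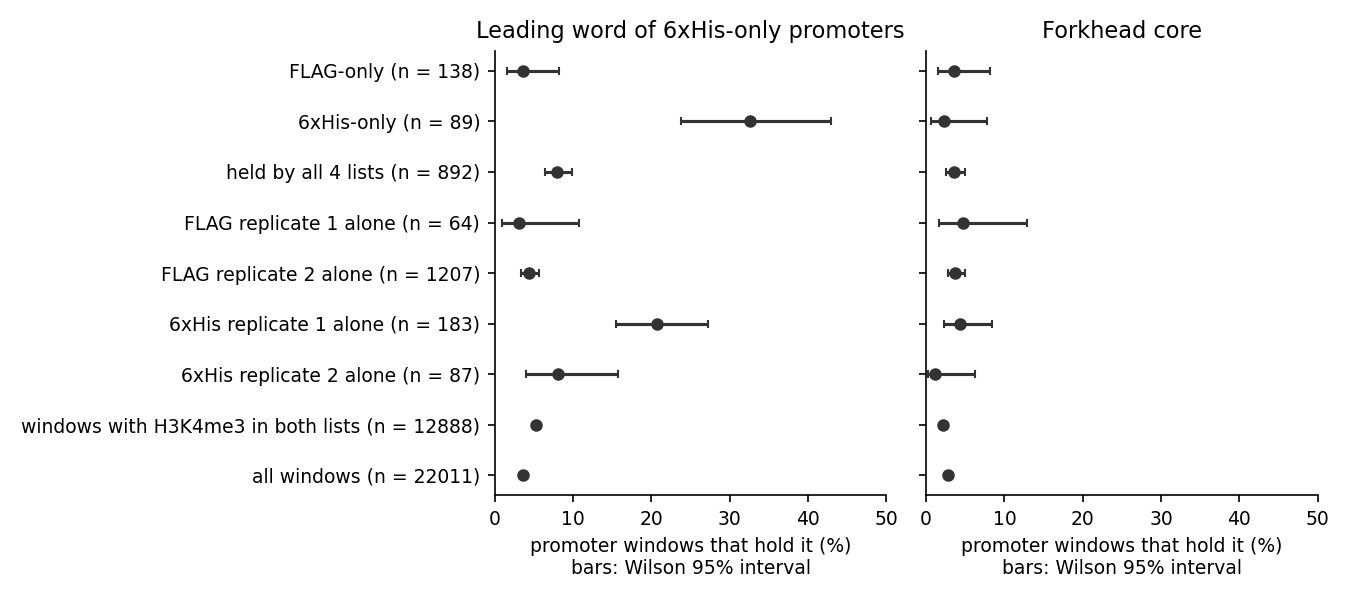
Share of promoter windows (percent, horizontal) that hold the leading 8-letter word of the 6xHis-only promoters (left) or the forkhead core (right), for windows of each site class, windows reached by 1 list alone, windows with H3K4me3 and all windows; bars are Wilson 95% intervals. The word stands at 3.62% in FLAG-only windows, 32.6% in 6xHis-only windows and 20.8% in windows of 6xHis replicate 1 alone, and the forkhead core lies between 1.15% and 4.69% in every set.

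In every list H3K4me3 windows with the word were reached more often than those without it, and the ratio was larger in the 6xHis lists. Of 671 windows with H3K4me3 and the word, FLAG replicate 1 reached 14.9% and FLAG replicate 2 32.8%, against 31.9% for 6xHis replicate 1 and 23.5% for 6xHis replicate 2. Of the 12217 H3K4me3 windows without it, the FLAG lists reached 11.2% and 25.6%, against 14.1% and 13.4% for the 6xHis lists. The ratio of the shares with and without the word was 1.33 and 1.28 in the FLAG lists and 2.27 and 1.76 in the 6xHis lists. Part of these windows are the ones in which the word was found. Of the windows with the word that a list reached, 4.00% (4 of 100) and 6.82% (15 of 220) were in the 1000 best ranks of the FLAG lists, against 23.8% (51 of 214) and 18.4% (29 of 158) in the 6xHis lists. Of those without the word the shares were 6.56% and 8.13% in the FLAG lists, against 8.61% and 9.61% in the 6xHis lists.

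Peak summits of 6xHis replicate 1 gathered at the word, counted where a list's own peak, and not only the merged region, overlapped the window. The median distance from the word to the summit of the peak over its window was 379.5 bp in FLAG replicate 1 (36 occurrences) and 222 bp in FLAG replicate 2 (206), against 130 bp in 6xHis replicate 1 (188) and 219 bp in 6xHis replicate 2 (135). Within 50 bp of the word lay 8.33% and 11.7% of the FLAG summits, against 26.6% and 9.63% of the 6xHis summits. The share in 6xHis replicate 2 lay between those of the FLAG replicates. Part of these windows are the ones in which the word was found. In 6xHis-only windows, 14 of 30 occurrences had the 6xHis replicate 1 summit within 50 bp. In windows of sites held by all 4 lists the shares were 7.69% and 6.15% in the FLAG lists, against 12.7% and 8.33% in the 6xHis lists. AAGATGGC contains the core of the sequence known to be bound by YY1, a zinc-finger transcription factor whose protein has a run of histidines. The word is a match of letters, and which protein was precipitated at these promoters was not tested.

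**Figure D4:**
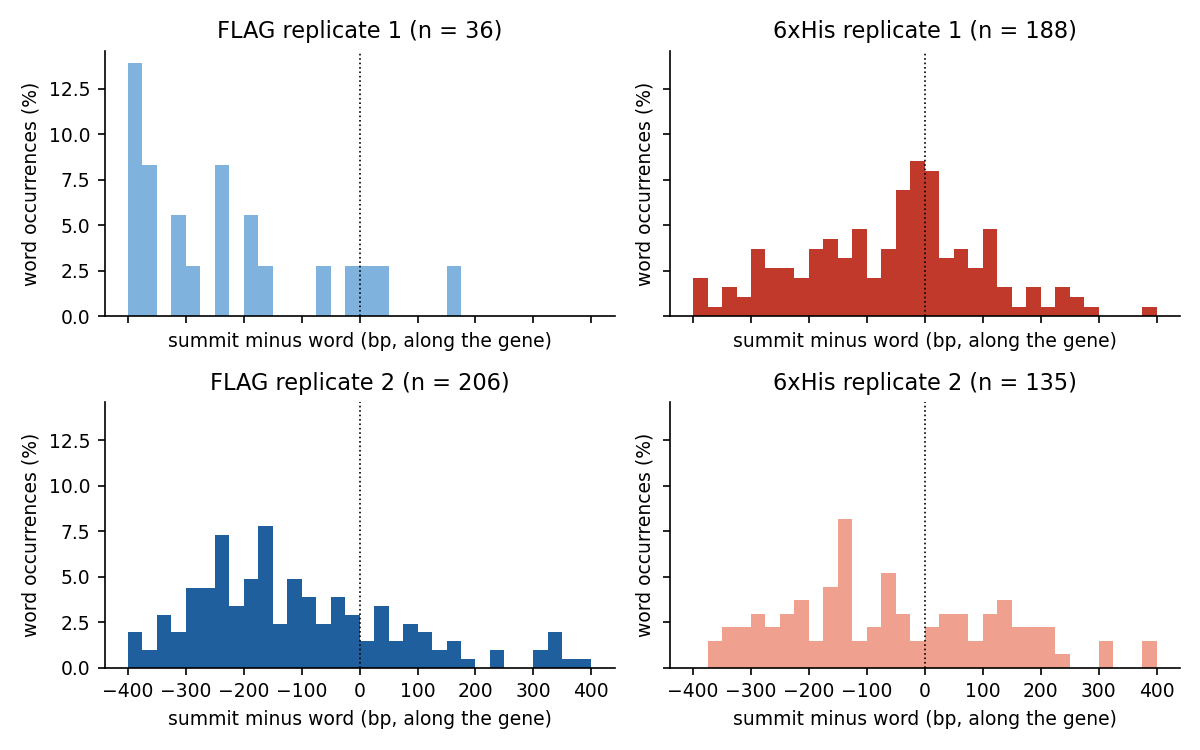
Distance from each occurrence of the word in an H3K4me3 promoter window to the summit of the list's peak over that window (bp, positive downstream along the gene, bins of 25 bp), as percent of all occurrences with a peak in that list; summits beyond 400 bp are counted in the total and not drawn. Within 50 bp of the word lie 8.33% and 11.7% of summits in the FLAG replicates, against 26.6% in 6xHis replicate 1 and 9.63% in 6xHis replicate 2.

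Within promoter windows the forkhead core did not separate the tags. Sites outside these windows, which are most sites of either tag, were not searched for it. TGTTTAC, on either strand, stood in 3.62% of FLAG-only windows (5 of 138), 2.25% of 6xHis-only windows (2 of 89) and 3.59% of windows of sites held by all 4 lists, against 2.86% of all windows. Within H3K4me3 windows every list reached those with the core more often than those without, by 6.97 and 19.0 percentage points in the FLAG lists and by 7.80 and 7.80 points in the 6xHis lists (exact permutation between tags p = 1, two-sided). The intervals of all 4 differences lie above 0. They were not adjusted for GC content. Windows reached by the lists, with or without H3K4me3, had a median GC content of 60.3% and 62.3% in the FLAG lists and 60% in each 6xHis list. It was 66.7% in all H3K4me3 windows. The AP-1 site TGANTCA differed by 5.44 and 4.31 points in the FLAG lists and by 4.84 and 2.47 points in the 6xHis lists (exact permutation p = 0.667). Its interval in 6xHis replicate 2 includes 0 (-0.483 to 5.89). Windows with the GC box GGGCGG were reached less often in every list, by -6.14 and -7.82 points in the FLAG lists and -8.80 and -8.07 points in the 6xHis lists. The ETS core CCGGAAG, the CCAAT box and the E-box CACGTG differed by no more than 7.38 points in any list. For the CCAAT box, as for the forkhead core, the intervals of all 4 differences lie above 0. The leading 8-letter word of FLAG-only windows and of windows of all 4 lists was the same, ACTTCCGG, whose reverse complement contains the ETS core. It stood in 18 of 138 FLAG-only windows (13.0%), 11 of 89 6xHis-only windows (12.4%) and 104 of 892 windows of all 4 lists (11.7%), against 8.43% of H3K4me3 windows and 5.31% of all windows. Within H3K4me3 windows ACTTCCGG differed by 4.02 and 5.54 points in the FLAG lists and 5.05 and 6.14 points in the 6xHis lists. These intervals also lie above 0. FLAG-only windows also had rarer words in excess. GGTTAGGA and CAGGGTTA, which ranked 9 and 10 there, each stood in 10 of 138 windows (7.25%), against 0.641% and 0.654% of all windows. CAGGGTTA ends in the letters GGTTA, with which GGTTAGGA begins, so the words may mark the same places, which was not checked. Both were picked in these windows for their excess, so their shares are descriptions. They were counted by window and not by gene, and windows of a gene can overlap.

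By marks, FLAG-only sites lay in chromatin with more of every mark. H3K4me3 was in both lists at 365 of 1978 FLAG-only sites (18.5%, 95% Wilson interval 16.8 to 20.2), against 211 of 2569 6xHis-only sites (8.21%, 7.21 to 9.34). H3K4me1 was in all 4 lists at 41.0% of FLAG-only and 24.3% of 6xHis-only sites, and H3K27ac at 18.5% and 7.90%. MLL4 was in at least 1 of its 4 lists at 15.7% of FLAG-only and 5.45% of 6xHis-only sites. The FLAG-only minus 6xHis-only differences were 10.2 points for H3K4me3 (Newcombe 95% interval 8.24 to 12.3), 16.7 points for H3K4me1, 10.6 points for H3K27ac and 10.3 points for MLL4. None of the 3 histone marks was found in any list at 37.3% of FLAG-only and 57.4% of 6xHis-only sites. Sites of all 4 lists held H3K4me3 in 32.7% and H3K4me1 in 61.8% of cases.

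These differences depended on 1 library, FLAG replicate 2, and changed sign without it. Every combination of lists that included FLAG replicate 2 had much H3K4me3, whichever tag it was combined with. Among regions of exactly 2 lists, the combinations with FLAG replicate 2 held H3K4me3 at 18.5% with FLAG replicate 1, 21.6% with 6xHis replicate 1 and 34.1% with 6xHis replicate 2. The 3 combinations without it held it at 4.16% to 8.21%. The 6xHis-only share, 8.21%, was the highest of those 3. The pattern was the same in regions of 1 list (22.3% with FLAG replicate 2, against 2.32% to 4.50% in the other 3 lists) and of 3 lists (20.3% to 36.2% with it, against 6.65% without). H3K4me1, H3K27ac and MLL4 split the same way, with no overlap of the ranges at any number of lists. Without FLAG replicate 2, with FLAG-only sites taken as those of FLAG replicate 1 and neither 6xHis list, the H3K4me3 difference was -14.1 points and that of H3K4me1 -17.7 points.

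**Figure D5:**
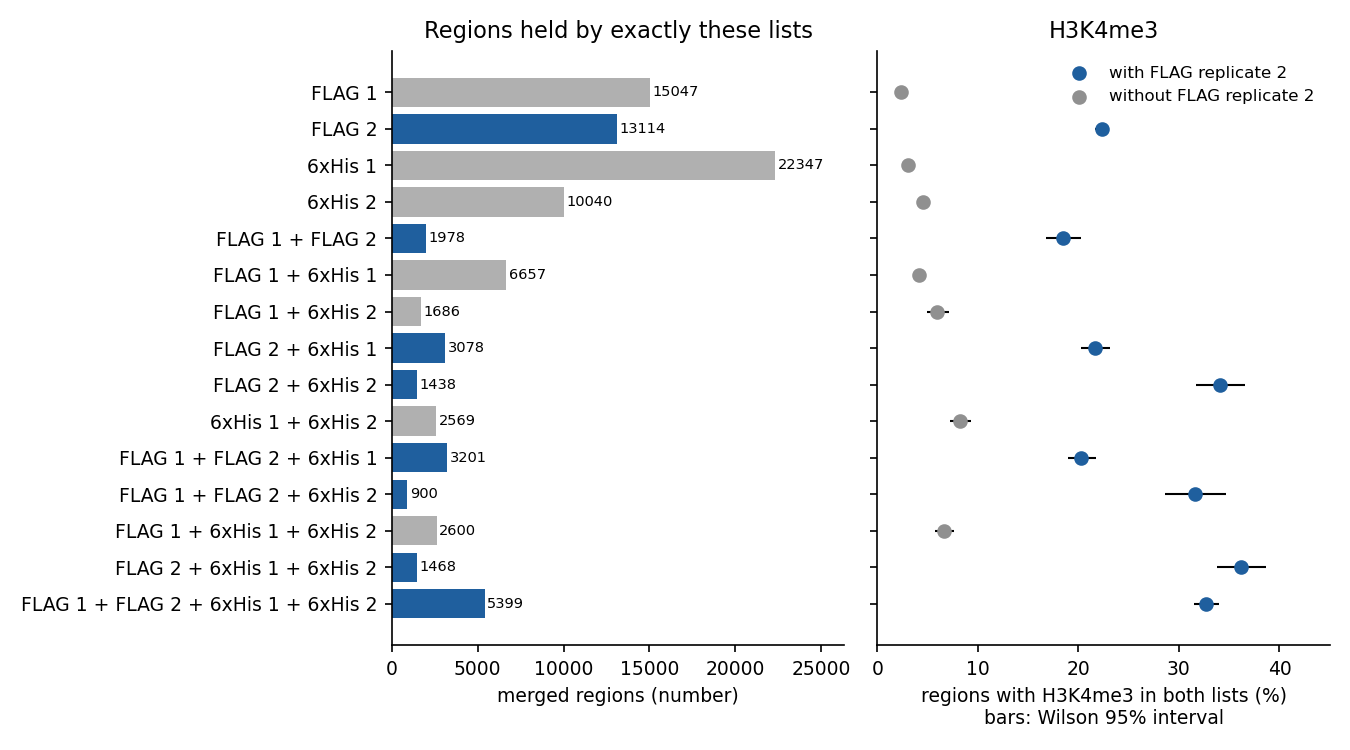
Number of merged regions held by exactly the lists named (left, bars) and share of them with H3K4me3 in both lists (right, percent, points with Wilson 95% intervals); blue marks combinations with FLAG replicate 2 and grey those without it. The FLAG-only combination has 1978 regions at 18.5% and the 6xHis-only combination 2569 at 8.21%, and every blue point lies to the right of every grey one.

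Per list, the tags did not differ beyond the spread of the FLAG replicates. H3K4me3 shares averaged 17.8 ± 10.3% in the FLAG lists and 12.9 ± 3.43% in the 6xHis lists (SD, n = 2 each, exact permutation p = 0.667, two-sided). H3K4me1 averaged 37.7 ± 10.6% in the FLAG lists and 30.9 ± 2.75% in the 6xHis lists, and H3K27ac 18.2 ± 9.51% with FLAG and 13.4 ± 3.14% with 6xHis. MLL4 averaged 15.6 ± 7.49% in the FLAG lists and 11.3 ± 2.18% in the 6xHis lists. For all 4 marks the exact permutation p was 0.667, also after Benjamini-Hochberg adjustment over them. Per the labels, the histone marks were mapped on chromatin cut with micrococcal nuclease and MLL4 on crosslinked, sonicated chromatin like that of the tags.

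Regions held by exactly 1 list of each tag numbered 1438 to 6657 by combination, a range that includes both tag-only counts. FLAG replicate 1 and 6xHis replicate 1 shared 6657 regions that no other list held, and FLAG replicate 2 and 6xHis replicate 1 shared 3078. Both cross-tag combinations exceeded the 1978 FLAG-only and the 2569 6xHis-only sites. The remaining combinations, FLAG replicate 1 with 6xHis replicate 2 and FLAG replicate 2 with 6xHis replicate 2, held 1686 and 1438. Regions with a rank of 1000 or better in both of their lists numbered 0 among FLAG-only and 22 among 6xHis-only sites, against 14, 2, 2 and 1 in the cross-tag combinations.

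FLAG-only sites were slightly wider and nearer to gene starts. The median width was 630 bp for FLAG-only and 597 bp for 6xHis-only sites, against 1214 bp for sites of all 4 lists. Median peak widths per list were 446 and 468 bp with FLAG and 466 and 428 bp with 6xHis (exact permutation p = 0.667, two-sided). Within a protein-coding gene lay 71.0% of FLAG-only and 68.1% of 6xHis-only sites, a difference that was -4.03 points without FLAG replicate 1 and -3.72 points without FLAG replicate 2. Its interval included 0 at a −log10 q of at least 5, at equal list length and at an overlap of 50%. Within 2 kb of a gene start lay 252 of 1867 FLAG-only sites (13.5%) and 191 of 2415 6xHis-only sites (7.91%), and 22.6% of sites of all 4 lists, leaving out chromosome 8. Over 2 kb from both ends of every gene lay 73.4% of FLAG-only and 81.4% of 6xHis-only sites. Without FLAG replicate 2 the gene-start difference was -10.1 points and the width difference -241 bp, where the FLAG class then rests on 1 list. No protein-coding gene lay within 100 kb of 4.45% of FLAG-only and 9.89% of 6xHis-only sites.

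Each site was assigned to the nearest protein-coding gene within 100 kb, so a gene's sites may lie in it or near it. By this assignment, 7.98% of 19970 protein-coding genes had a FLAG-only site, 9.54% a 6xHis-only site and 15.0% a site of all 4 lists. EP300, which encodes the histone acetyltransferase p300, had 5 FLAG-only sites and 0 6xHis-only sites among 48 regions, and 4 sites of all 4 lists. AGO3, GMEB1, PALLD and PITPNC1 had 4 FLAG-only sites each, among 18, 16, 61 and 30 regions. PSPC1, RBM6 and SBNO1 also had 4 each, among 36, 41 and 32 regions. PCDH7, a protocadherin gene, and GRHL2, which encodes an epithelial transcription factor, had 0 and 1 FLAG-only sites, against 5 6xHis-only sites each. They had 96 and 34 regions, of which 5 and 3 were sites of all 4 lists. BPTF, DCBLD2 and DNAH12 had 2, 0 and 2 FLAG-only sites, against 4 6xHis-only sites each, among 50, 36 and 25 regions. Of these regions, 5, 2 and 0 were sites of all 4 lists. Over all genes, 2.16% of regions were FLAG-only and 2.81% 6xHis-only. The genes named here were picked for their counts, which are descriptions. GMEB1 spans 51.1 kb and PCDH7 426.4 kb, and counts were not adjusted for length.

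Sites of all 4 lists were frequent in genes of splicing factors and chaperones. The gene lists here and below were chosen with earlier results of these data known, so their shares are descriptions. Of sites of all 4 lists within a gene, 94.9% lay in genes with H3K4me3 in both lists at a start. Of all genes with a promoter window, 63.2% had it, and the shares below were not adjusted for this. Of 21 hnRNP and SR splicing factor genes, 6 (28.6%) had a FLAG-only and 3 (14.3%) a 6xHis-only site, against 7.98% and 9.54% of all genes. A site of all 4 lists was assigned to 19 (90.5%), against 15.0% of all genes. At TRA2B the best such site ranked 49 and 480 in the FLAG lists and 62 and 65 in the 6xHis lists, and HNRNPC was assigned 18 sites. Of 20 heat shock and chaperone genes, 3 (15%) had a FLAG-only and 3 (15%) a 6xHis-only site, against 7.98% and 9.54% of all genes. A site of all 4 lists was assigned to 16 (80%), against 15.0% of all genes. HSPH1, a gene of the HSP110 family, held the region ranked 1 in FLAG replicate 1 and 269.5 in FLAG replicate 2, which ranked 47 and 106 in the 6xHis lists. Among 20 p53 target genes, 7 (35%) had a FLAG-only site, among them FAS, BBC3 and SESN2, against 7.98% of all genes, and 3 (15%) a 6xHis-only site, against 9.54% of all genes. Those sites lie in SESN1 and RRM2B and 12.9 kb from SESN2. At SESN1, which encodes a stress-induced inhibitor of mTORC1 signalling, the site ranked 600 and 822 in the 6xHis lists. MDM2, which encodes the ubiquitin ligase of p53, was assigned 13 sites of all 4 lists and no site of either tag alone. Of the 20 p53 target genes, 8 (40%) had a site of all 4 lists, against 15.0% of all genes.

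Of 17 genes of the H3K4 methyltransferase complexes, 2 (11.8%) had a FLAG-only site (RBBP5 and KMT2C), against 7.98% of all genes. A 6xHis-only site was assigned to 5 (29.4%), among them CXXC1, KMT2A, HCFC1 and RBBP5, against 9.54% of all genes. A site of all 4 lists was assigned to 6 (35.3%), against 15.0% of all genes. The HCFC1 site, at the gene of the host cell factor that joins such complexes, ranked 99.5 and 12860.5 in the 6xHis lists and was 1 of 4 6xHis-only sites on the X chromosome. The difference between 2 and 5 genes was not tested.

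The other lists are given by their share of genes with a FLAG-only, a 6xHis-only and an all-4 site, to be read against 7.98%, 9.54% and 15.0% of all genes. The 27 forkhead genes lay near these shares, with 7.41%, 14.8% and 18.5% (2, 4 and 5 genes), and the all-4 sites assigned to FOXL1 and FOXD1 lie 80.0 and 74.6 kb away. The 20 epithelial junction and keratin genes had 25%, 15% and 35% (5, 3 and 7), with FLAG-only sites in EPCAM, TJP1, DSP and CDH1. The 22 ribosomal protein genes had 9.09%, 9.09% and 31.8% (2, 2 and 7), and the 20 core histone genes 5%, 10% and 45% (1, 2 and 9). The 17 Wnt targets had 5.88%, 0% and 35.3% (1, 0 and 6), where the best MYC site of all 4 lists lies 88.3 kb from the gene, and the 17 intestinal identity genes 11.8% of each kind (2, 2 and 2). None of 14 blood markers had a site of any class. The 13 fibroblast and endothelial markers had 0%, 15.4% and 23.1% (0, 2 and 3), and the 12 neural markers 0%, 16.7% and 8.33% (0, 2 and 1). Genes of a list differ in length and in the distance to their neighbours.

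The FOXD2 gene (chr1:47438044-47440691) had no peak of either tag nearby. The nearest FLAG peaks lay 64.3 and 49.1 kb away and the nearest 6xHis peaks 73.0 and 100.8 kb away.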

How the data were processed

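The authors deposited 1 narrowPeak list per library. The submitters' processing notes name MACS2 2.2.7.1, Bowtie2 2.3.4.1, cutadapt 3.4, bedtools and Picard, and build hg38. Settings, background library and read depth are not given there. Each deposited list gives a fold enrichment (ratio), p-value and q-value as −log10, and the summit's offset in bp. The largest deposited q was 0.01. Inputs were not used here.

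Peaks on chromosomes 1 to 22 and X were merged (touching or overlapping) with Python 3.11.15, pandas 2.3.3, numpy 2.4.6 and scipy 1.17.1, and plotted with matplotlib 3.10.9. A list held a region with at least 1 bp of a peak, and a region's rank was that of its best peak. Marks counted when present in both H3K4me3, all 4 H3K4me1, all 4 H3K27ac or at least 1 MLL4 list. A site counted for the protein-coding gene closest to it, up to 100 kb away. Genes and starts came from RefSeq tables, with starts for 15711 of 19970 protein-coding genes. Named genes were the 10 best-ranked sites of each tag, the 5 genes with the most sites, the 5 largest rank differences each way and up to 4 best-ranked members of 13 gene lists (epithelial, p53, H3K4 methyltransferase, forkhead, chaperone, splicing, ribosomal, histone, Wnt, intestinal, blood, fibroblast and neural). The members and lists were chosen with earlier results of these data known. Steps were tested on simulated lists. Exact permutation tests were run over libraries, with other thresholds, overlaps, merging gaps, list lengths, rankings and left-out libraries as alternatives, and binomial intervals (Wilson, Newcombe, 95%) cover counting error only.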

Additional observations from a re-analysis of the deposited data

How the results depend on the processing

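Of 173 alternative values, 117 were counted as unchanged, 39 moved and 17 changed sign. For results with a permutation p, any value of the same sign counted as unchanged, whatever its size. Site counts were judged by a fixed ratio, widths by the replicate spread and the other shares by the interval of the main value. The 117 are therefore not a measure of numerical stability. The settings for the word and for the 100 best regions were chosen after seeing the data. Most sign changes came from leaving out FLAG replicate 2, which gave -2.42 points for H3K4me3 per list, -0.610 for H3K4me1, -2.00 for H3K27ac and -0.891 for MLL4. At tag-only sites it gave -14.1, -17.7, -13.1 and -8.85 points in the same order of marks, -10.1 points at gene starts and 10.7 points for sites over 2 kb from gene ends. Widths gave -231 bp without FLAG replicate 1 and -241 bp without FLAG replicate 2, and shares within genes -4.03 and -3.72 points. When 1 list is left out, a class rests on 1 list on that side and 2 on the other.

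Over the 4 left-out libraries, the same-tag minus different-tag difference ran between -3.68 and 0.507 points for sharing and between -0.0641 and 0.0599 for rank agreement. The FLAG minus 6xHis difference in the 100 best regions ran between 2.5 and 33 per 100. FLAG-only sites numbered 2875 to 17260 and 6xHis-only sites 4080 to 25041. Per list, differences ran between -2.42 and 12.2 points for H3K4me3, -0.610 and 14.1 for H3K4me1, -2.00 and 11.4 for H3K27ac, and -0.891 and 9.58 for MLL4. At tag-only sites they ran between -14.1 and 18.9, -17.7 and 29.8, -13.1 and 18.4, and -8.85 and 16.5 points for the same marks. Width ran between -241 and 320 bp, the share within genes between -4.03 and 13.3 points, at gene starts between -10.1 and 11.9, far from gene ends between -15.1 and 10.7, and the word between -19.8 and -15.7.

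Where only peaks at −log10 q of at least 5 were kept, FLAG-only sites numbered 732 and 6xHis-only sites 1284, with differences of 12.7 points for H3K4me3, 20.2 for H3K4me1, 13.3 for H3K27ac and 16.5 for MLL4, and 94.5 bp in width. An overlap of 50% gave 7.81 points for H3K4me3, and marks counted from at least 1 list gave 18.9 points for H3K27ac, with 4.84 for MLL4 in both empty-vector lists. The cause was not tested. With the replicate block, rank agreement was 0.00482, sharing -0.191 points, and sites of 1 list absent from the same-numbered list of the other tag averaged 20491 for FLAG and 23178.5 for 6xHis. The block left the per-list mark differences as they were (4.93 points for H3K4me3, sign-flip exact p = 0.5, the smallest possible). Only 2 numbers exist, and the labels do not say that they pair libraries. Read depth, which sets how many sites a list can hold, limits all absences here.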

Other observations

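Few regions of either tag lay on the X chromosome. It held 0.112% and 0.301% of the FLAG regions, 0.133% and 0.0958% of the 6xHis regions, 2 FLAG-only sites, 4 6xHis-only sites and 0 of the 5399 sites of all 4 lists. The same chromosome held 2.44% and 2.47% of the H3K4me3 peaks and 4.25% of protein-coding genes, and 0.182% to 0.796% of the MLL4 peaks.

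Chromosome 17 held 144 FLAG-only sites (7.28%), 125 6xHis-only sites (4.87%) and 517 sites of all 4 lists (9.58%), against 5.85% of protein-coding genes. MED13, VMP1, SMURF2 and SPAG9, each the nearest gene of 13 or 14 sites of all 4 lists, lie there. An excess of such sites was not particular to chromosome 17. Chromosomes 8 and 10 held 7.33% and 6.56% of the sites of all 4 lists, against 3.58% and 3.68% of protein-coding genes. Copy number was not examined here. Chromosome 19 held 0.926% and 2.55% of the FLAG regions and 0.983% and 1.07% of the 6xHis regions, against 7.27% of protein-coding genes and 7.34% to 7.45% of H3K4me3 peaks, although 5 of the 10 best-ranked 6xHis-only sites (PRKCSH, CCDC124, PTBP1, TPGS1 and ZNF175) lie on it.

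In H3K4me3 windows the word AAGATGGC ran in the direction of the gene in 513 of 699 occurrences (73.4%), and 449 (64.2%) lay after the gene start, with a median of 13 bp after it. In 6xHis-only windows 10 of 33 occurrences lay after the start, with a median of -106 bp.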
